A study of Homo sapiens with 71 samples.

Results

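The genes described here carry the symbols of enzymes that oxidise, reduce, hydrolyse or conjugate reactive and foreign molecules, measured in a human liver cell line exposed to surface water. They are 81 of the 31012 complete entries of the expression table. They were chosen by a rule on symbols, made with earlier results of these data known. The rule takes aldehyde and alcohol dehydrogenases (symbols starting with ALDH and ADH), and soluble and microsomal glutathione transferases (GSTA, GSTK, GSTM, GSTO, GSTP, GSTT, GSTZ and MGST). It also takes flavin-containing monooxygenases (FMO), carboxylesterases (CES), epoxide hydrolases (EPHX), carbonyl reductases (CBR) and short-chain dehydrogenases of the DHRS series. Of 90 symbols with such a start followed by a digit, 9 were left out by the rule, which drops ALDH3A1, ALDH18A1 and symbols ending in P or in P and digits (except GSTP1). The 81 include 5 antisense RNAs (ALDH1L1-AS1, ALDH1L1-AS2, CBR3-AS1, DHRS4-AS1 and GSTT1-AS1), which encode no enzyme and match by their symbol, besides 76 other entries. Among the 76, the gene annotation lists DHRS4L1 as a transcribed pseudogene and GSTT2 as a polymorphic pseudogene.

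The cells were HepG2, an established line grown from a human hepatoma, with no genetic modification named in the labels. Cells from combined flasks were spread over dishes, grown for 72 hours and then exposed for 48 hours to a medium made with filtered water as 75% of its volume. That water came from 1 of 16 sites, called here by the codes of the labels (BRWI, CRMI, CROH, FRWI, GRMI, GRNY, IHIN, JRMI, LRMN, MAWI, MIWI, MROH, ORNY, RRMI, SRMI and VROH), or was purified water for the laboratory controls. There were 4 dishes per site, 3 for MIWI, and 8 control libraries. The title of the series places the waters in Great Lakes tributaries and names the monitoring of emerging contaminants as the purpose, so the comparisons ask in which waters these enzymes' transcripts differed from the controls and from other waters. The dishes came from 1 pool of cells, so p-values measure the spread between dishes of that pool, and a tumour line stands for liver only in part.

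RNA was measured with TempO-Seq, in which pairs of detector probes are ligated on each target RNA and the products are sequenced. Totals were 2.91 to 9.89 M counts (median 5.55 M, where M stands for 1e6) in the site libraries used, against 8.18 to 14.5 M counts (median 9.11 M) in controls, and the part of that difference in the results was not tested. These totals cover only the entries of the table used here, which stop at RAI14. VROH library 2 held 8840 counts in these entries and was left out, which left 70 libraries and 3 for VROH. CRMI library 1 and SRMI library 3 stood apart from the other libraries of their sites, as described for single genes further on, so results are given with all 70 libraries and, where they differ, with the 68 that remain without both. Levels are CPM, counts per 1e6 counts that a library had in the features tested, scaled for library composition, with the SD over libraries. Errors of log2 changes are standard errors. A gene is called where the adjusted p of edgeR's quasi-likelihood test, corrected by the Benjamini-Hochberg method over all features tested, is under 0.05.

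As background, the liver clears reactive molecules in steps. Oxidising enzymes make or remove alcohols, aldehydes and epoxides, with aldehyde dehydrogenases turning aldehydes into acids and epoxide hydrolases opening epoxides into diols. Glutathione transferases then join the tripeptide glutathione to electrophiles, which marks them for export. Several members of these families are known targets of the factors NRF2 (gene NFE2L2), AHR, PXR and CAR, which sense oxidants and foreign chemicals in liver.

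Of the 81 genes, 43 had enough counts to be tested, 24 had counts too low for the test (2 to 284.9 counts summed over the 71 libraries) and 14 were listed at 0, the 5 antisense RNAs among them. The tested genes took in 11 of 19 ALDH, 3 of 7 ADH, 8 of 14 DHRS and all 3 MGST entries, antisense RNAs counted, but 1 of 5 FMO and 2 of 5 CES entries. The genes listed at 0 included CES1, the main liver carboxylesterase, GSTA1 and GSTA4, alpha class glutathione transferases, and CBR3, a carbonyl reductase. GSTP1, the pi class transferase, had 3 counts in the whole data set. Among those below the limit were DHRS9, a retinol-oxidising enzyme, with 39 counts, and the ethanol-oxidising class I genes ADH1A, ADH1B and ADH1C with 24.2, 49.8 and 26.0 counts. The sources used here do not give the probes or their number per gene, so CPM are not amounts of RNA that can be set against each other between genes, and a listing at 0 says only that no count was recorded. Probes of near-identical copies (GSTA2 and GSTA5, GSTM1, GSTM2 and GSTM4, GSTT2B and GSTT2, DHRS4 and its copies, ADH1A to ADH1C) could share RNA, so values of these genes are uncertain.

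In control cells the signals of the highest gene per family were 860.3 ± 63.4 CPM for DHRS2, a mitochondrial dicarbonyl reductase, 471 ± 52.1 CPM for ALDH2, the mitochondrial enzyme that clears acetaldehyde, and 351 ± 34.2 CPM for GSTT1, a theta class transferase that acts on small halogenated molecules (SD, n = 8). GSTM3, a mu class transferase, was at 281 ± 20.7 CPM and FMO5, a monooxygenase that inserts oxygen beside carbonyl groups, at 272 ± 19.4 CPM in controls. ADH5, which clears formaldehyde bound to glutathione, was at 160.4 ± 8.50 CPM, the membrane-bound transferase MGST1 at 143 ± 28.9 CPM and CBR4, a mitochondrial carbonyl reductase, at 101 ± 13.6 CPM in controls. EPHX1, the microsomal epoxide hydrolase that acts on foreign epoxides, was at 88.4 ± 8.81 CPM in controls. The remaining families were led in controls by GSTO2 (21.9 ± 4.22 CPM), GSTK1 (11.7 ± 1.15 CPM), CES3 (9.75 ± 1.67 CPM), GSTA2 (4.06 ± 1.18 CPM) and GSTZ1 (2.38 ± 0.39 CPM).

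Averaged over all waters, no gene of these families passed the test. At the mean of the 16 sites against controls, 0 of the 43 tested genes were called, where 0.101% of all 6943 tested features were; 2 of the 43 had an unadjusted p under 0.05 (2.94% of all features did), DESeq2 called 0, and the lowest adjusted p was 0.481. That was ALDH9A1, which oxidises an aldehyde on the way to carnitine: its mean log2 difference was -0.29 ± 0.09, with estimates below controls at 16 of 16 sites, which share the same 8 control libraries. The median log2 difference of the 43 genes was -0.04, beside -0.01 over all features. With 68 libraries the test called 0 of them too (lowest adjusted p 0.335), where 0.174% of all features were called.

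Differences were found at single sites. Over the 688 pairs of a tested gene and a site, 11 pairs (1.60%) were called, 3 higher and 8 lower than controls, beside 1.93% of the pairs over all features. They came from 7 genes: ALDH1L2, ALDH4A1, GSTT1, MGST1, EPHX2, CBR4 and DHRS4, so 16.3% of the 43 genes were called at some site, beside 19.0% of all features. At LRMN 4 of 43 genes were called (9.30%, beside 8.64% of all features). At CROH the count was 2 (all features 4.16%) and at SRMI 2 (3.17%), and 1 gene each was called at BRWI (0.475%), CRMI (7.32%) and MAWI (1.56%). No tested gene was called at FRWI (0.331% of all features), GRMI (0.115%), GRNY (0.533%), IHIN (0.101%), JRMI (1.09%), MIWI (0.0144%), MROH (0.0144%), ORNY (1.58%), RRMI (1.74%) or VROH (0.0%). At an unadjusted p under 0.05 the counts were 8 at FRWI (13.7% of all features), 2 at GRMI (9.72%), 5 at GRNY (17.9%), 4 at IHIN (11.2%), 3 at JRMI (11.9%), 2 each at MIWI (4.35%) and MROH (5.42%), 7 each at ORNY (12.6%) and RRMI (9.65%) and 4 at VROH (6.91%). DESeq2 called 1 gene at GRNY, 2 at ORNY and 0 at the other 8 of these sites. The shares of all features that DESeq2 called there are not given here. With the 68 libraries 20 pairs were called (2.91%, 7 higher and 13 lower, beside 4.09% of all pairs). These held 9 of the 11 pairs, without those of ALDH4A1 and DHRS4 at SRMI. By site those were 6 at LRMN (17.5% of all features), 5 at CROH (10.3%), 2 each at GRNY (9.17%) and ORNY (4.09%), and 1 each at BRWI (1.14%), CRMI (8.01%), FRWI (2.18%), JRMI (2.91%) and MAWI (4.71%). None was called at GRMI (0.549%), IHIN (0.549%), MIWI (0.0145%), MROH (0.0868%), RRMI (2.86%), SRMI (1.27%) or VROH (0.13%). In both fits the share of called pairs was a little smaller among the detoxification genes than among all features. In these bulk samples fewer cells with a transcript and less of it per cell cannot be told apart.

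**Figure D1:**
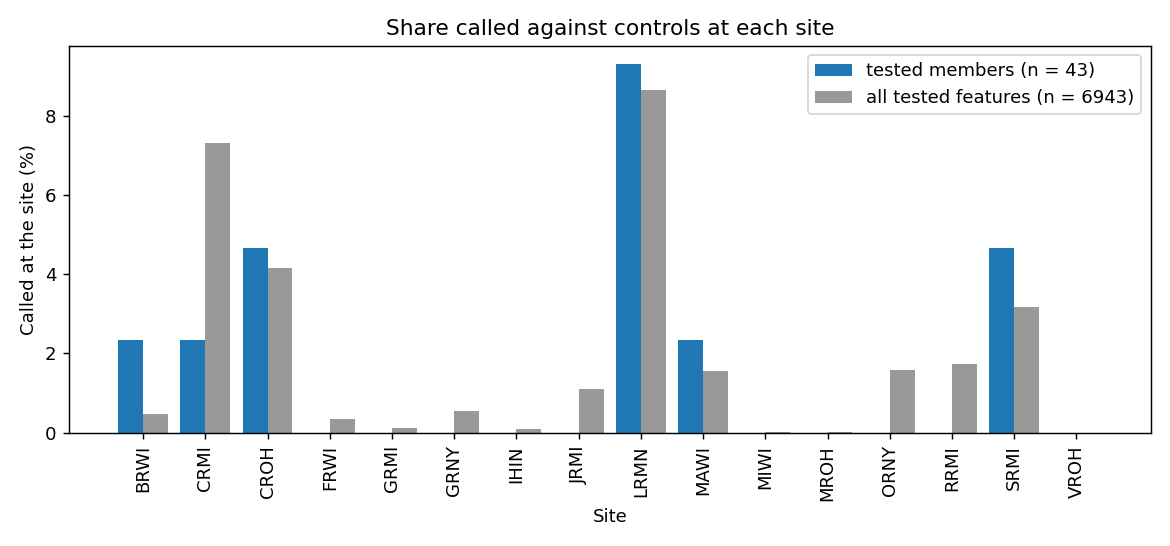
Share of features called against controls (percent, vertical axis) at each of the 16 sites (horizontal axis), for the 43 tested detoxification genes and, as grey bars, for all 6943 tested features. The pair of bars at LRMN stands at 9.30% and 8.64%, and 10 sites have no blue bar, that is, no called detoxification gene.

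**Figure D2:**
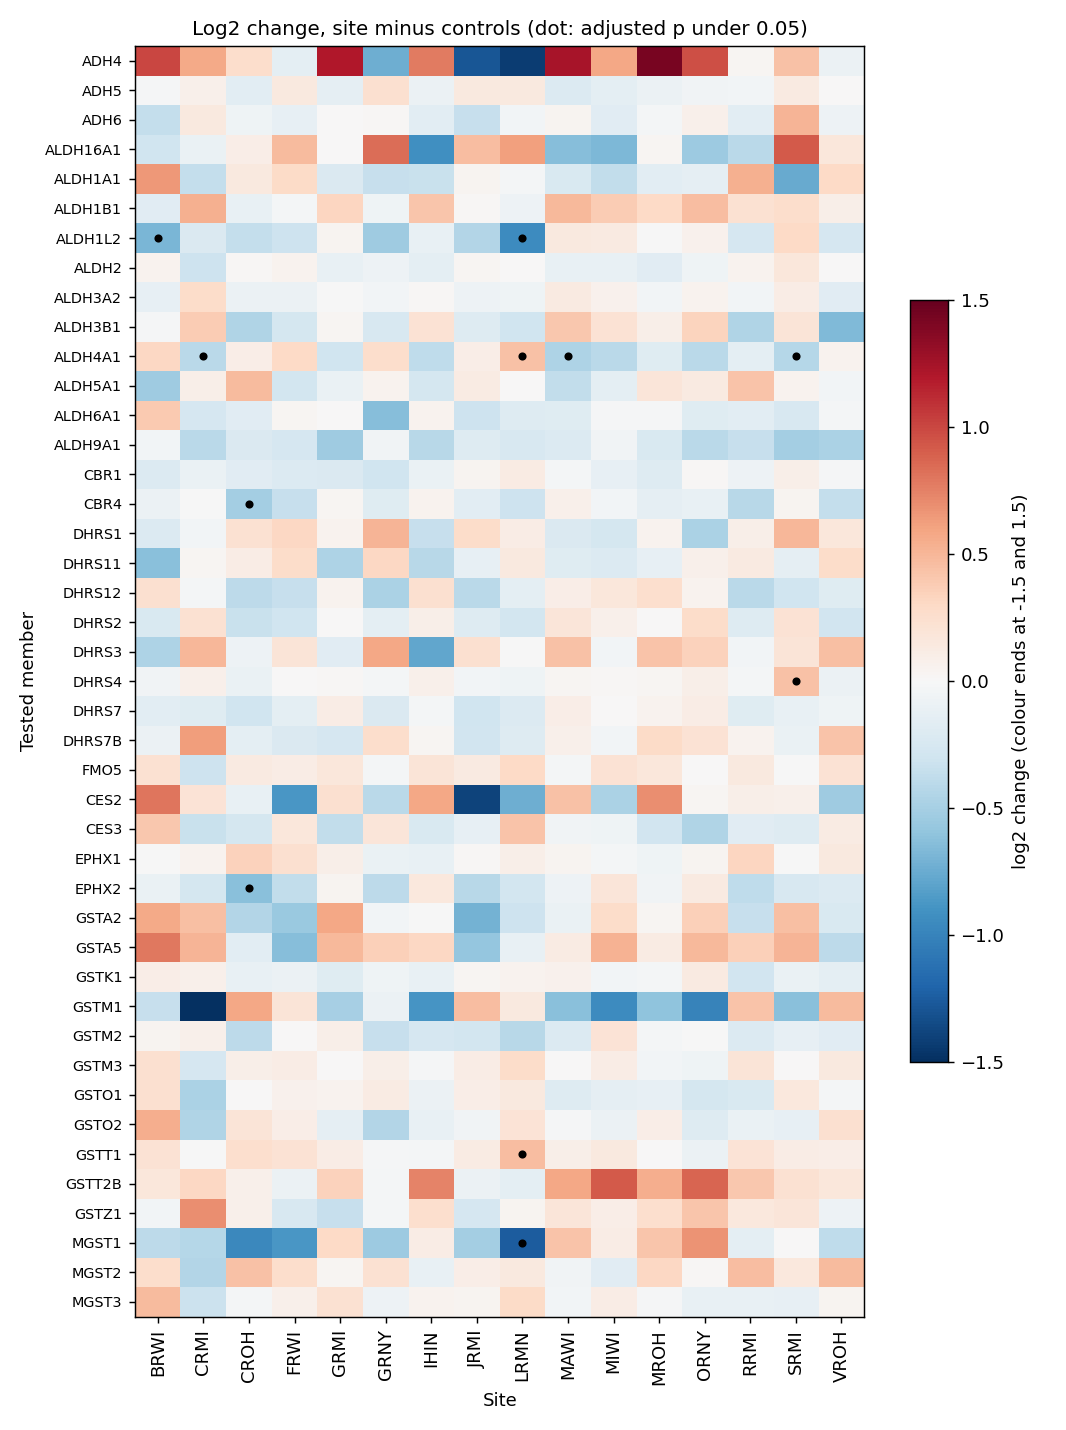
Log2 change of each tested gene (vertical axis) at each site (horizontal axis) against controls, blue for lower and red for higher, with a dot where the adjusted p is under 0.05. The 11 dots lie on ALDH1L2, ALDH4A1, CBR4, DHRS4, EPHX2, GSTT1 and MGST1, while the dark colours of ADH4, CES2 and GSTM1, genes with few counts, carry no dot.

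Among the aldehyde dehydrogenases, ALDH1L2 fell and ALDH4A1 moved both ways. ALDH1L2 (chr12:105019784-105084577, minus strand) is a mitochondrial enzyme that oxidises formyl tetrahydrofolate and makes NADPH. Its level at LRMN was 11.1, 11.1, 7.77 and 9.54 CPM, against 12.7 to 24.6 CPM (median 18.9) in the 8 controls. No LRMN dish reached the lowest control, and the log2 change was -0.95 ± 0.16 (adjusted p = 3.49e-05, edgeR). The call held without any 1 of these 12 libraries. At BRWI the 4 dishes stood at 12.7, 11.4, 11.5 and 11.9 CPM, close together at the low edge of the controls, with a log2 change of -0.69 ± 0.16 (adjusted p = 0.0235). Without any 1 of the BRWI libraries that adjusted p rose to between 0.0568 and 0.145, and without control library 5 or 6 to 0.0632 or 0.0501. With 68 libraries ALDH1L2 was also called at GRNY, at -0.53 ± 0.14 (adjusted p = 0.0154).

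ALDH4A1 (chr1:18871430-18902781, minus strand) completes the breakdown of proline to glutamate in mitochondria. It stood at 59.1, 65.9, 81.5 and 63.7 CPM in LRMN dishes, against 42.7 to 55.8 CPM (median 49.5) in controls. All 4 dishes lay above every control, with a log2 change of 0.44 ± 0.11 (adjusted p = 0.00848). In MAWI dishes the gene stood at 31.9, 38.1, 33.2 and 40.5 CPM, below every control, and its log2 change was -0.46 ± 0.12 (adjusted p = 0.0254). The dishes of CRMI, with 38.2, 37.1, 38.3 and 36.0 CPM, and of SRMI, with 33.9, 38.4, 34.7 and 40.2 CPM, lay below every control as well. The changes there were -0.41 ± 0.12 (adjusted p = 0.0257) and -0.43 ± 0.12 (adjusted p = 0.0322). Of these calls, the one at LRMN was lost without LRMN library 3 (log2 0.34, adjusted p = 0.0865). The others were each lost without at least 1 dish: MAWI library 1 (adjusted p = 0.187), MAWI library 3 (0.137) or control library 7 (0.0523) at MAWI, any CRMI library (0.052 to 0.0784) or control library 4, 7 or 8 (0.0534 to 0.0602) at CRMI, and SRMI library 1 (0.0662), SRMI library 3 (0.156) or control library 4, 7 or 8 at SRMI. The log2 estimates kept their sign in all of these. With 68 libraries ALDH4A1 was also called at ORNY, at -0.40 ± 0.12 (adjusted p = 0.0360), where 3 dishes held 30.1, 33.8 and 32.7 CPM, below every control, and the fourth 54.6 CPM.

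The other aldehyde dehydrogenases were called at no site with 70 libraries. ALDH2 (chr12:111766887-111817529, plus strand) had a log2 difference between -0.31 (CRMI) and 0.17 (SRMI). Both ends rest on the libraries that stood apart: with 68 libraries the values there were 0.02 (CRMI) and -0.10 (SRMI), and the range was -0.17 (MROH) to 0.06 (FRWI). The difference of ALDH1A1, a cytosolic enzyme that makes retinoic acid, lay between -0.76 (SRMI) and 0.66 (BRWI), and between -0.60 (SRMI) and 0.65 (BRWI) with 68 libraries. ALDH1A1 was at 51.7 ± 10.1 CPM in controls, and the standard error of its difference at BRWI was 0.41, or 0.30 with 68 libraries. Of the alcohol dehydrogenases, ADH5 ranged from -0.20 (MAWI) to 0.24 (GRNY) and ADH6 from -0.36 (BRWI) to 0.51 (SRMI), neither called. With 68 libraries ADH6 was at 0.0089 at SRMI and reached 0.08 at most (ORNY). ADH4, which oxidises retinol and longer alcohols, was at 0.33 ± 0.24 CPM at LRMN and 2.27 CPM at MROH, its lowest and highest sites, against 0.85 ± 0.46 CPM in controls, and none of its differences was called.

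**Figure D3:**
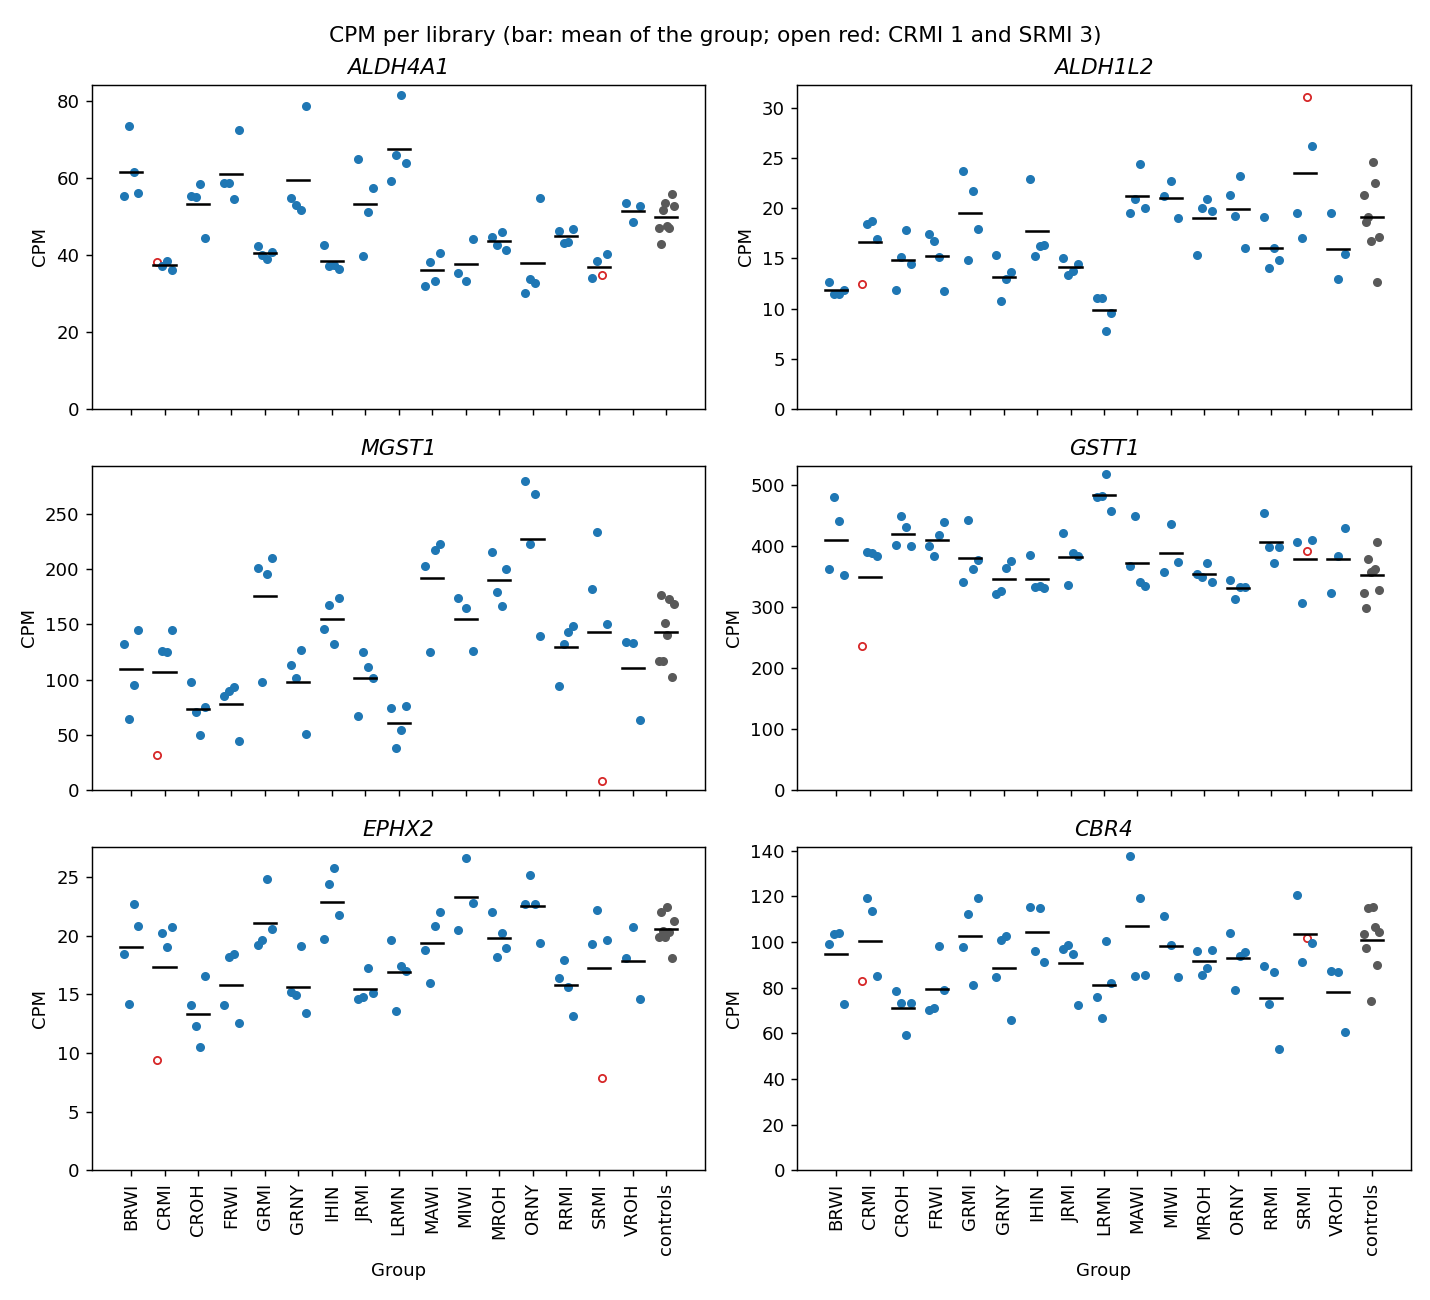
Level in CPM (vertical axes, starting at 0) of 6 genes in each library, by site and for controls on the right; bars are group means and open red circles are CRMI library 1 and SRMI library 3. In LRMN the 4 dishes of ALDH4A1 and GSTT1 stand above, and those of ALDH1L2 and MGST1 below, all 8 controls.

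Among the glutathione transferases, GSTT1 rose and MGST1 fell at LRMN. GSTT1, which has no position in the annotation used here, stood at 480.5, 481, 517 and 457 CPM in LRMN dishes, against 298 to 407 CPM (median 358) in controls. The groups did not overlap, and the log2 change was 0.46 ± 0.10 (adjusted p = 0.00124, edgeR). The call held without any 1 of these 12 libraries. With 68 libraries GSTT1 was called at CROH too, where the log2 change was 0.26 ± 0.09 (adjusted p = 0.0429) and the dishes overlapped with controls.

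MGST1 (chr12:16347142-16609259, plus strand) sits in the membranes of the endoplasmic reticulum and mitochondria, where it conjugates electrophiles and reduces lipid peroxides. Its level was 73.8, 37.9, 53.9 and 75.6 CPM in LRMN dishes, against 102 to 177 CPM (median 146) in controls. All LRMN dishes lay below every control, with a log2 change of -1.25 ± 0.37 (adjusted p = 0.0231). The call was lost without LRMN library 2 (log2 -1.09, adjusted p = 0.120) or library 3 (log2 -1.20, adjusted p = 0.0707). In SRMI library 3, MGST1 stood at 7.90 CPM, against 151 to 234 CPM in the other 3 SRMI libraries. Without that library and CRMI library 1 the adjusted p at LRMN was 0.000248, and MGST1 was also called at CROH and FRWI. At CROH its level was 97.6, 70.3, 50.01 and 74.6 CPM and at FRWI 84.6, 89.3, 93.0 and 43.9 CPM, all below the lowest control of 102 CPM. The log2 changes were -0.97 ± 0.24 (adjusted p = 0.00604) and -0.88 ± 0.24 (adjusted p = 0.0339).

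The related MGST2, which can make leukotriene C4, was called at no site and had log2 differences between -0.44 (CRMI) and 0.48 (VROH), or between -0.16 (MIWI) and 0.48 (VROH) with 68 libraries, where CRMI was at -0.16. GSTM3 was called at LRMN with 68 libraries and not with 70. There the dishes held 396, 269, 343 and 346 CPM, against 253 to 320.1 CPM (median 281) in controls. One LRMN dish lay inside the range of controls, and the log2 change was 0.27 ± 0.08 (adjusted p = 0.0112). GSTT2B, a second theta class gene, was called with 68 libraries at ORNY alone, with 4.33 ± 0.60 CPM there (n = 4), against 2.38 ± 0.73 CPM in controls (n = 8; log2 0.88 ± 0.24, adjusted p = 0.0238). Log2 differences of GSTK1, a transferase of mitochondria and peroxisomes, lay between -0.28 (RRMI) and 0.14 (ORNY), with no call.

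Among the epoxide hydrolases and carbonyl reductases, EPHX2 and CBR4 fell at CROH. EPHX2, the soluble hydrolase that opens epoxides of fatty acids, stood at 14.1, 12.3, 10.49 and 16.5 CPM in CROH dishes, against 18.1 to 22.5 CPM (median 20.3) in controls. The groups did not overlap, and the log2 change was -0.63 ± 0.17 (adjusted p = 0.0193, edgeR). The call was lost without CROH library 2 (log2 -0.57, adjusted p = 0.0895) or library 3 (log2 -0.52, adjusted p = 0.144). With 68 libraries EPHX2 was called at GRNY (-0.38 ± 0.12, adjusted p = 0.0331) and JRMI (-0.41 ± 0.12, adjusted p = 0.0471) as well. The microsomal EPHX1 (chr1:225810092-225845563, plus strand) went the other way at CROH. Its 4 dishes there held 113, 103, 132 and 99.6 CPM, against 73.8 to 99.2 CPM (median 89.9) in controls, and its log2 change was 0.34. That change was called with 68 libraries (adjusted p = 0.0281) and was not with 70 (adjusted p = 0.0785).

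CBR4 (chr4:168863770-169010275, minus strand) stood at 78.4, 73.4, 59.4 and 73.1 CPM in CROH dishes, against 74.4 to 116 CPM (median 104) in controls. One CROH dish lay above the lowest control, and the log2 change was -0.50 ± 0.15 (adjusted p = 0.0336). This call was lost without CROH library 2, 3 or 4 (adjusted p = 0.0869 to 0.192) and without any 1 of 6 control libraries (1, 2, 3, 5, 6 and 8; adjusted p = 0.0520 to 0.0714). CBR1, the main cytosolic carbonyl reductase, was called nowhere, with log2 differences between -0.30 (GRNY) and 0.12 (LRMN).

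DHRS4, a peroxisomal reductase of ketones and retinal, was called at SRMI on the strength of 1 library. Its dishes there held 120.0, 122, 268 and 123 CPM, against 103 to 133 CPM (median 114) in controls. The third is the SRMI library that stood apart, and without it the log2 change was 0.06 (adjusted p = 0.890), where it had been 0.44 ± 0.13 (adjusted p = 0.0395). DHRS3, which turns retinal into retinol, had low signal, at 1.42 ± 0.49 CPM in controls, and its log2 differences between -0.78 (IHIN) and 0.58 (GRNY) were not called. At CRMI it was at 0.50 with 70 libraries and, without CRMI library 1, at -1.09, then the lowest of the sites and not called either. FMO5 (chr1:147175351-147243050, minus strand) was called with 68 libraries at LRMN, where the 4 dishes held 363, 301, 343 and 327 CPM, against 241 to 293 CPM (median 277) in controls, without overlap (log2 0.29 ± 0.09, adjusted p = 0.0219). The carboxylesterases CES2, which cleaves prodrugs, and CES3 were called against controls at no site. CES2 varied widely between dishes, at 3.14 ± 1.58 CPM in controls.

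The waters were also compared with each other, without the controls, by an F test over the 16 site means. It called 12 of the 43 genes (27.9%), beside 37.8% of all features. ALDH4A1 had the largest F of the 43, at 10.7 (adjusted p = 7.20e-10), then ALDH1L2 at 6.69 (adjusted p = 9.55e-07), DHRS2 at 4.90 (adjusted p = 5.05e-05), MGST1 at 3.58 (adjusted p = 0.00134) and ALDH3B1 at 3.55 (adjusted p = 0.00144). EPHX2, GSTT1, CES3, GSTM1, DHRS12, CBR4 and GSTT2B were called with adjusted p between 0.00662 and 0.0369. The calls of CBR4 and GSTT2B were lost without any 1 of 33 and of 27 of the 70 libraries, up to adjusted p values of 0.0779 and 0.0745. The other 10 were called whichever library was left out. With 68 libraries 16 genes were called (37.2%, beside 49.8% of all features), the 12 and ADH5, ALDH1B1, EPHX1 and GSTM3. The F of MGST1 was then 8.40 (adjusted p = 2.36e-08).

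MGST1 spanned a wide range, at 60.3 ± 17.9 CPM in LRMN and 228 ± 64.0 CPM in ORNY (n = 4 each), with controls between them at 143 ± 28.9 CPM. ALDH4A1 stood at 35.9 ± 4.05 CPM in MAWI and 67.5 ± 9.74 CPM in LRMN, with controls at 49.7 ± 4.34 CPM. DHRS2 (chr14:23630115-23645639, plus strand) was called in no water against controls yet differed between waters, at 685 ± 34.8 CPM in CROH and 1038 ± 182 CPM in ORNY, with controls at 860.3 ± 63.4 CPM. ALDH3B1, which oxidises aldehydes from membrane lipids, stood at 3.72 ± 0.57 CPM in VROH (n = 3) and 7.88 ± 0.31 CPM in MAWI (n = 4), with controls at 5.93 ± 0.89 CPM. DHRS12 stood at 22.02 ± 3.35 CPM in GRNY and 36.4 ± 5.34 CPM in MROH, with controls at 30.5 ± 3.70 CPM, and CES3 at 7.21 ± 2.11 CPM in ORNY and 13.2 ± 3.37 CPM in LRMN, with controls at 9.75 ± 1.67 CPM. For each of these 6 genes the control mean lay inside the span of the site means. The genes were taken because they differed between waters, so this place of the controls is not a test.

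Several of these genes ran in parallel or in opposition across the waters. The site means of ALDH4A1, on the log2 scale of CPM plus 0.1 without CRMI library 1 and SRMI library 3, left a gap near 5.6, with 9 sites below it (5.17 to 5.49) and 7 above (5.69 to 6.07). ALDH1L2 was lower where ALDH4A1 was higher on both sides of the gap, with a Pearson r of -0.66 over the 9 sites and -0.82 over the 7. ALDH1B1, a mitochondrial enzyme that also accepts acetaldehyde, gave -0.83 over the 9 sites and -0.64 over the 7. For DHRS2 the values were -0.87 and 0.01, for MGST1 -0.32 and -0.55, and for CES3 -0.14 and 0.81. The gap was picked after the site means were seen, and a narrower range of ALDH4A1 can lower r by itself. Smaller values on 1 side therefore cannot show a step between 2 sets of sites. Over all 16 sites the r with ALDH4A1 was -0.92 for ALDH1L2, -0.96 for ALDH1B1, -0.89 for DHRS2, -0.89 for MGST1 and 0.79 for CES3. Parallels over all 16 sites were common in these data. Of 6942 other features, 23.9% had an absolute r of 0.8 or more with ALDH4A1, 22.9% with MGST1, 25.8% with DHRS2 and 0.504% with GSTT1. The shares within the 9 or the 7 sites are not given here. The points share library scaling and depth, and the r of ALDH4A1 with the log2 mean total count of a site was 0.18, that of MGST1 -0.0031 and that of CBR4 -0.50. These values describe 16 sites and carry no test.

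**Figure D4:**
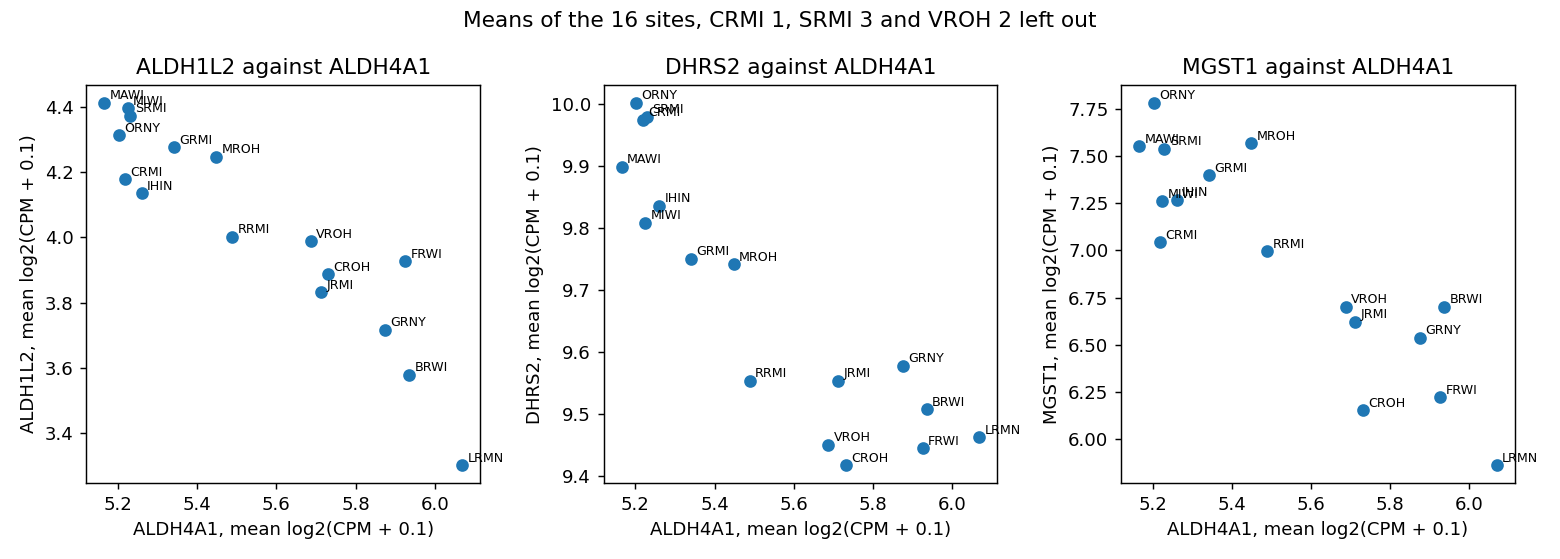
Mean log2(CPM + 0.1) of ALDH1L2, DHRS2 and MGST1 (vertical axes) against that of ALDH4A1 (horizontal axes), 1 point per site, without CRMI library 1, SRMI library 3 and VROH library 2. In each panel 7 sites with ALDH4A1 from 5.69 to 6.07 lie to the right of 9 sites from 5.17 to 5.49. LRMN, at the right end, has the lowest ALDH1L2 and MGST1.

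Promoters are shown for 4 of the genes that differed between waters. ALDH4A1 and MGST1 were taken because their site means were opposed over the 16 sites (r = -0.89). CBR4 and GSTM1 are examples with a sensor motif. The sequences are the 250 bases before the first start listed for each gene by RefSeq (GRCh38.p14), read 5′ to 3′ on the gene's strand, with motif matches in capitals. They span chr1:18902556-18902805 (minus strand) for ALDH4A1, chr12:16347395-16347644 (plus) for MGST1, chr4:169010256-169010505 (minus) for CBR4 and chr1:109687567-109687816 (plus) for GSTM1. RefSeq lists 2 starts for ALDH4A1 and 3 for MGST1. By the gene positions given above, the MGST1 window and most of the ALDH4A1 window lie inside the gene, so windows before their other starts are not shown.
ALDH4A1: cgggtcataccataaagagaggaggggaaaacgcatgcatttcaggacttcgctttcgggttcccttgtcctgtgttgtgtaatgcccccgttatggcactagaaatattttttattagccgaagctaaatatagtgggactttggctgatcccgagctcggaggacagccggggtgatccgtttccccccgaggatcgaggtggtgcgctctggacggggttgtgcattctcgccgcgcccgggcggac
MGST1: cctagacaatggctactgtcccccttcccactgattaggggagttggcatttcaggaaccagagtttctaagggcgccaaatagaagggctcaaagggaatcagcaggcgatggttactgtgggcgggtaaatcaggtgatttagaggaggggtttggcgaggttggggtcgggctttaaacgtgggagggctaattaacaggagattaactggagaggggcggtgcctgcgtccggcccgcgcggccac
CBR4: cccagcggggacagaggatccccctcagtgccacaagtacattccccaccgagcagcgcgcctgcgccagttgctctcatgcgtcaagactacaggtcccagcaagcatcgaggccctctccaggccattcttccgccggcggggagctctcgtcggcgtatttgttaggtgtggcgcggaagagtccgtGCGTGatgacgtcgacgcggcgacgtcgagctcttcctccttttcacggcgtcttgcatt
GSTM1: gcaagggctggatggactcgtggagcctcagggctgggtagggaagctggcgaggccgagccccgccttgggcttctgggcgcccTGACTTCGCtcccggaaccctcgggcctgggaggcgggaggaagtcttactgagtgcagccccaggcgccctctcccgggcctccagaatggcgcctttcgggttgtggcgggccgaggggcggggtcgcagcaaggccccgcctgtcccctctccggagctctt
3 motifs were searched on both strands: TGACNNNGC, the core that NRF2 with its small MAF partners binds; GCGTG, the core that AHR with ARNT binds; and TGATGNAA, a core of C/EBP-ATF elements. TGACNNNGC was in 10.9% of the 35116 promoters of the table and in 11.1% of the 90 promoters of the detoxification genes (63 of the 81 genes had an entry). GCGTG was in 32.2% and 31.1%, and TGATGNAA in 3.14% and 1.11%. These matches describe letters in a window. The motifs do not overlap one another in the sequences printed.

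GSTM1 and CBR4 carry 1 match each, to TGACNNNGC and to GCGTG. Of the 12 genes that differed between waters, 7 had an entry: TGACNNNGC was in that of GSTM1, GCGTG in those of CBR4 and DHRS12, and TGATGNAA in 0. GSTM1 itself had low signal, at 0.47 ± 0.33 CPM in CRMI (n = 3, without library 1) and 1.71 ± 0.56 CPM in CROH (n = 4), against 1.13 ± 0.25 CPM in controls.

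CRMI library 1 and SRMI library 3 stood apart in many of these genes. In CRMI library 1, 14 of the 43 genes were more than 1 log2 unit below the mean of the other 3 CRMI libraries and 2 were more than 1 above. ALDH1A1 had 0.37 CPM there, against 48.0 to 58.4 CPM in the other 3. ALDH6A1, an enzyme of valine breakdown, had 8.29 CPM, against 221 to 284 CPM in the others, and GSTO2, which reduces oxidised vitamin C, 0.37 CPM, against 19.0 to 27.5 CPM. FMO5 (28.3 CPM, against 259 to 313 CPM), GSTM3 (32.2 CPM, against 290.1 to 328 CPM) and ALDH2 (91.8 CPM, against 432 to 510.5 CPM) were low in it as well. In SRMI library 3, 8 genes were more than 1 log2 unit lower and 7 more than 1 higher than in the other SRMI libraries. MGST1 had 7.90 CPM in it, DHRS12 7.24 CPM, against 22.3 to 36.4 CPM, and ADH6 76.1 CPM, against 27.1 to 29.8 CPM in the others. The reason for either library's pattern was not tested. The share of all features that lay as far from the others, and such counts for other libraries, are not given here. The counts therefore do not show whether the pattern was particular to these genes. They include genes with few counts, such as GSTM1, at 0 CPM in CRMI library 1, against 0.27 to 0.85 CPM in the others.

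**Figure D5:**
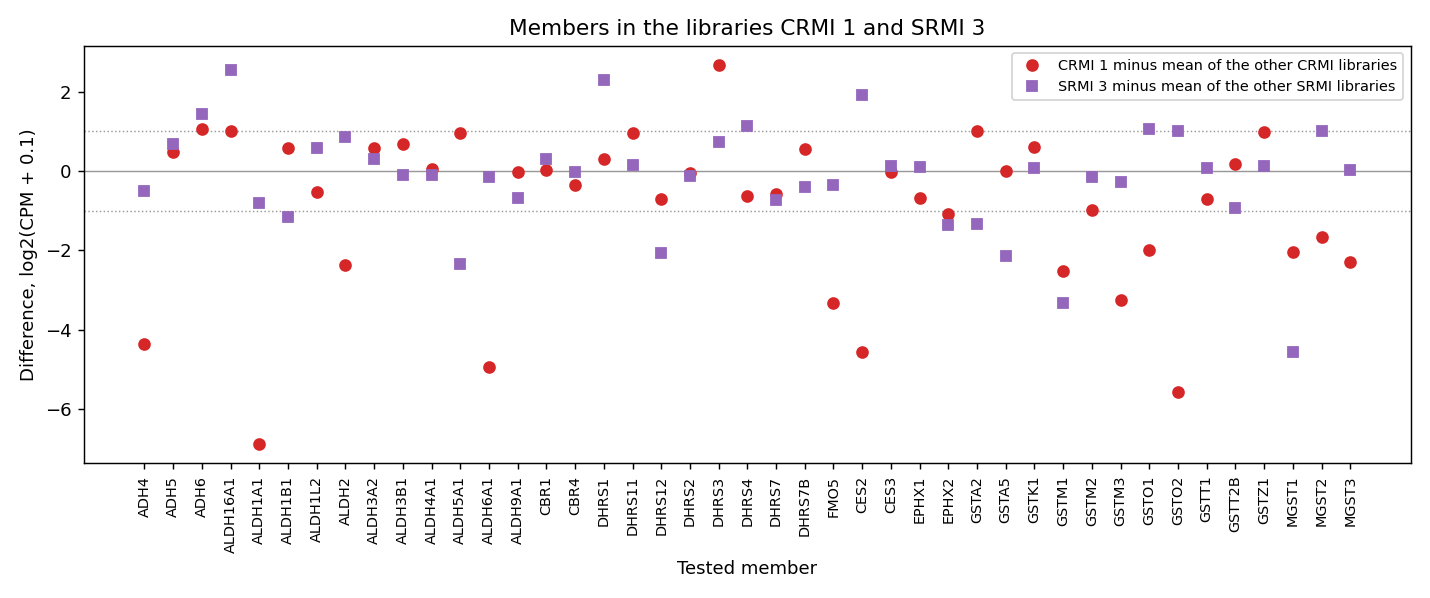
Difference in log2(CPM + 0.1) (vertical axis) of each tested gene (horizontal axis) between CRMI library 1 (circles) or SRMI library 3 (squares) and the mean of the other 3 libraries of its site; dotted lines mark 1 unit. ALDH1A1, GSTO2 and ALDH6A1 lie lowest in CRMI library 1 and MGST1 in SRMI library 3.

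Other genes of the same processes were taken as 3 lists chosen by function, also with earlier results of these data known. None of their tested genes was called at the mean of sites. Of 23 genes that supply or recycle glutathione, 17 were tested and 5 of 272 pairs with a site were called (1.84%, beside 1.93% of all pairs), 2 higher and 3 lower. GPX2, a peroxidase that uses glutathione, rose at RRMI to 115 ± 13.0 CPM, against 61.3 ± 7.33 CPM in controls (log2 0.91 ± 0.20, adjusted p = 0.00382). IDH1, which makes cytosolic NADPH, fell at LRMN (-0.57 ± 0.17, adjusted p = 0.0288). Without LRMN library 2 or 3 the adjusted p of IDH1 was 0.201 or 0.0881. CHAC2, which degrades glutathione, was higher at CRMI (0.70 ± 0.20, adjusted p = 0.0193), and was not called with 68 libraries (0.60 ± 0.22, adjusted p = 0.0870) or without CRMI library 3 (0.0614). LANCL1, a glutathione-binding protein, fell at CROH (-1.03 ± 0.31, adjusted p = 0.0395), a call lost without any 1 of the 4 CROH libraries or of control libraries 2, 3, 4, 5 and 8 (adjusted p = 0.0557 to 0.189). In the F test between waters 9 of the 17 were called (52.9%, beside 37.8% of all features). With 68 libraries 20 pairs (7.35%, beside 4.09% of all pairs) and 11 genes between waters (64.7%, beside 49.8%) were called.

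Of 37 genes of other oxidation, reduction, conjugation and export, 30 were tested and 21 of 480 pairs were called (4.38%, beside 1.93% of all pairs), 13 higher and 8 lower, with 21 of the 30 called between waters (70%, beside 37.8% of all features). CYP3A7 and CYP3A5, drug-oxidising cytochromes, rose at RRMI, CYP3A7 to 38.5 ± 4.502 CPM, against 18.2 ± 1.87 CPM in controls (log2 1.08 ± 0.16, adjusted p = 7.11e-06), and CYP3A5 by a log2 of 0.91 ± 0.18 (adjusted p = 0.00126). At CRMI AKR7A2, an aldehyde reductase, fell (-0.73 ± 0.12, adjusted p = 6.97e-05). With 68 libraries 48 pairs of this list (10%, beside 4.09% of all pairs) and 22 genes between waters (73.3%, beside 49.8%) were called. Of 19 transcription factors that act on detoxification genes, all 19 were tested and 10 of 304 pairs were called (3.29%, beside 1.93%), 3 higher and 7 lower, with 13 called between waters (68.4%, beside 37.8%). The bile acid receptor NR1H4 fell at LRMN (-0.52 ± 0.11, adjusted p = 0.00152), NFE2L1, a relative of NRF2, at CRMI (-0.86 ± 0.19, adjusted p = 0.00219) and NR1I3, which encodes CAR, at RRMI (-0.91 ± 0.20, adjusted p = 0.00301). Without RRMI library 2 or 4 the adjusted p of NR1I3 was 0.0503 or 0.0789. CEBPA, a factor of liver cell identity, was higher at SRMI (0.70 ± 0.16, adjusted p = 0.00635), but not called with 68 libraries (0.47 ± 0.15, adjusted p = 0.108). NFE2L1 and AKR7A2 were called at CRMI with 68 libraries too, at -0.58 ± 0.16 (adjusted p = 0.0204) and -0.58 ± 0.12 (adjusted p = 0.002996). In all, 23 pairs of the factors (7.57%, beside 4.09%) and 14 of them between waters (73.7%, beside 49.8%) were called with 68 libraries.

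The cells showed the liver markers of their label. All 14 HepG2 and liver markers were tested, and they summed to 1.43e+05 to 2.42e+05 CPM in site libraries, against 1.55e+05 to 2.16e+05 CPM in controls. Of their 224 pairs with a site 6 were called (2.68%, beside 1.93% of all pairs), 1 higher and 5 lower. The fibrinogen gene FGG fell at RRMI (log2 -0.59 ± 0.13, adjusted p = 0.00422), whichever 1 of the 12 libraries was left out. The calls of FGB at RRMI, FGA at CROH, FOXA1 at LRMN, and FGG and APOA2 at SRMI were each lost without at least 3 single libraries. Of 8 immune markers 4 were tested, the pan-leukocyte PTPRC was listed at 0, and the list summed to 576 to 3910 CPM in site libraries, against 1508 to 2104 CPM in controls. Of their 64 pairs with a site 7 were called (10.9%, beside 1.93% of all pairs), 3 higher and 4 lower, all of LYZ, lysozyme. At LRMN LYZ stood at 3243 ± 519 CPM, against 1604 ± 196 CPM in controls (log2 1.02 ± 0.15, adjusted p = 4.78e-06). LYZ was also higher at CROH (0.64 ± 0.15, adjusted p = 0.00872) and lower at CRMI (-1.10 ± 0.17, adjusted p = 2.11e-05; -0.97 ± 0.18 with 68 libraries), and these 3 calls held without any 1 library. Its other called pairs, higher at GRNY (0.66) and lower at IHIN (-0.73), MAWI (-0.64) and SRMI (-0.55), were each lost without at least 3 single libraries. The part of LYZ in the results at these sites was not tested. Fibroblast markers summed to 18.0 to 63.7 CPM in site libraries, against 38.0 to 61.5 CPM in controls. Endothelial markers had 1 of 48 pairs with a site called (2.08%, beside 1.93% of all pairs). These markers summed to 6.03 to 15.9 CPM, against 9.66 to 14.1 CPM in controls, with KDR at 0. Of them CDH5 fell at LRMN, to 0.28 ± 0.15 CPM, against 1.13 ± 0.40 CPM in controls (log2 -2.001 ± 0.56, adjusted p = 0.0163), a call lost without LRMN library 2 or 4 (adjusted p up to 0.0852), and its part in the LRMN results was not tested. Markers of other epithelia summed to 3.22 to 10.2 CPM, against 3.61 to 7.35 CPM in controls, with KRT6A and MUC2 at 0.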

How the data were processed

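The authors deposited a table of estimated counts per gene for HepG2 dishes measured by TempO-Seq. Salmon and the build GRCh38 come from the submitters' processing notes; its version, the probe list and how probes were summed or scaled per gene are not stated there or in the labels. The table's name calls the values normalized, but each library's low values step in units of 0.993 to 1: of the values below 20, 93.4% in the median library and 91.6% in the lowest were within 0.02 of whole steps. They were therefore used like raw expected counts, after rounding. Only its first 31012 entries, up to an incomplete one for RAI14, were used, and later symbols were not analysed here. Columns were matched to labels by site code; 4 columns (3 of MIWI, 1 of GRMI) matched a group but no single dish.

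Libraries under 100000 counts were left out (1 of 71). Counts were fitted with edgeR 4.0.16 (R 4.3.3), TMM scaling and filterByExpr (minimum count 10; 6943 features passed out of 12425 that had any count), in 1 model with a mean for each of 17 groups (53 residual degrees of freedom, common biological coefficient of variation 0.249). Quasi-likelihood tests compared each site and the mean of sites with controls, and the 16 sites with each other; p values were adjusted by Benjamini and Hochberg's method across every tested feature, and the standard error is the log2 change divided by the square root of F. The fit was also run on simulated counts with known changes at LRMN alone and no libraries made to stand apart. Its outcome is not given here. Positions are from GENCODE 29 (GRCh38), which placed 79 of the 81 genes.

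Members and lists were chosen with earlier results of these data known. The text names genes called at the mean of sites, the 25 largest called changes at a site, the 10 smallest p values between sites, the highest control CPM in each of 15 families, fixed members of each family, and up to 4 called genes per further list. The result for 1 gene of those lists is not reported here. Other genes named were chosen after their values were seen. Alternatives were DESeq2 1.42.0, other scaling, no filter on low counts, other sets of libraries, each site fitted alone and leaving out each library.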

Additional observations from a re-analysis of the deposited data

Results flagged for a closer look

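In 105 groups of 4 dishes or 8 controls, taken for the genes called at a site, 15 held a library far from the rest of its group, by Dixon's test at the 95% level; chance gives about 1 in 20. ALDH1L2 stood at 22.9 CPM in IHIN library 1, where the other 3 held 15.3 to 16.3 CPM. ALDH4A1 stood at 78.6 CPM in GRNY library 4 (others 51.7 to 54.7 CPM) and at 54.6 CPM in ORNY library 4 (others 30.1 to 33.8 CPM). CBR4 was low in BRWI library 4, at 72.7 CPM (others 99.0 to 104 CPM), and in JRMI library 4, at 72.5 CPM (others 94.7 to 98.6 CPM).

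DHRS4 stood at 87.9 CPM in CRMI library 1 (others 132 to 141 CPM), 134 CPM in FRWI library 4 (others 111 to 114 CPM), 111 CPM in GRMI library 4 (others 120.05 to 122 CPM) and 268 CPM in SRMI library 3 (others 120.0 to 123 CPM). EPHX2 stood at 9.39 CPM in CRMI library 1 (others 19.0 to 20.7 CPM). GSTT1 stood at 236 CPM in the same library (others 383 to 389 CPM), 384 CPM in IHIN library 1 (others 330.1 to 333 CPM) and 306 CPM in SRMI library 2 (others 392 to 409 CPM). MGST1 stood at 43.9 CPM in FRWI library 4 (others 84.6 to 93.0 CPM) and 97.4 CPM in GRMI library 2 (others 196 to 210.3 CPM). These groups of dishes share libraries, so the counts are not independent.

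Levels that differed between waters, by edgeR's F test over the 16 site means, were found for 12 genes. The F values were 10.7 for ALDH4A1, 6.69 for ALDH1L2, 4.90 for DHRS2, 3.58 for MGST1, 3.55 for ALDH3B1, 2.95 for EPHX2, 2.86 for GSTT1, 2.78 for CES3, 2.43 for GSTM1, 2.37 for DHRS12, 2.29 for CBR4 and 2.28 for GSTT2B. Of these, DHRS2, ALDH3B1, CES3, GSTM1, DHRS12 and GSTT2B were called against controls at no site with 70 libraries.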

How the results depend on the processing

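The 11 calls of a gene at a site were recomputed under 7 alternatives, the 12 calls between sites and the 0 calls at the mean of sites under 6 of them (not with each site and the controls alone), and all without each library in turn; the cause of the differences was not tested. None of the 11 called log2 changes turned sign, while estimates that were not called did, such as ALDH2 at CRMI (0.02 with 68 libraries). Apart from the fit with 68 libraries, the shares of all features called in these refits are not given here. The counts below therefore do not show whether a shift was particular to these genes. DESeq2 called 15 pairs, with 1 at GRNY and 2 at ORNY. With no filter on low counts 7 pairs were called, with 0 at CRMI, 1 at CROH and 0 at SRMI. With all 71 libraries 4 pairs were called, with 0 at BRWI, CRMI, MAWI and SRMI and 1 at CROH. With 68 libraries 20 pairs were called: 5 at CROH, 1 at FRWI, 2 at GRNY, 1 at JRMI, 2 at ORNY and 0 at SRMI. Fitted with each site and the controls alone, 25 pairs were called: 0 at BRWI, 7 at CROH, 2 at FRWI, 2 at IHIN, 1 at JRMI, 2 at MAWI, 2 at ORNY, 2 at RRMI and 0 at SRMI. Without 1 library at a time the pairs called ranged between 7 and 17, the genes called between sites between 10 and 14, and those at the mean of sites stayed at 0. By site these counts ranged over 0 to 1 at BRWI, GRNY and MAWI, 0 to 2 at CRMI, CROH and ORNY, 2 to 4 at LRMN and 0 to 3 at SRMI, and were 0 at the other 8 sites.

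With the replicate number as a block, which left out the 3 MIWI libraries and GRMI library 1, 3 pairs were called, all at LRMN, with 0 at BRWI, CRMI, CROH, MAWI and SRMI; 9 genes were called between sites and 0 at the mean of sites. The deviations of same-numbered dishes of different sites from their group means had a median correlation of 0.00766 over 450 pairs. Those correlations ran from -0.694 to 0.746, and 133 exceeded 0.1. The median for differently numbered dishes was 0.00613. Whether dishes with the same number shared any handling was not tested.

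Depth limits the low genes: ADH4, CES2 and GSTM1 averaged 0.85, 3.14 and 1.13 CPM in controls. A call at 1 site rests on 3 or 4 dishes, and all sites share the same 8 controls.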
